A study of Mus musculus with 2 samples.

Results

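The cells described here are pericytes of the adult mouse lung, picked out of a Nes-GFP+ sort by the measured counts of 4 genes. A lung cell was kept with over 200 and under 4000 detected genes and under 40% of its unique molecular identifiers (UMIs, each a captured RNA molecule) in mitochondrial mt- genes. Members had a summed UMI count P of at least 5 over Cox4i2, Higd1b, Fam162b and Pdgfrb. P also had to exceed each of 4 other sums: Cldn5, Pecam1 and Cdh5 (endothelial); Tgfbi, Hhip, Fgf18 and Wnt5a (myofibroblast); Npnt, Tcf21, Inmt and Col13a1 (matrix fibroblast); and Myh11, Actg2, Cnn1 and Actc1 (smooth muscle). At most 1 UMI was allowed over the proliferation genes Mki67 and Top2a. The rule took 2280 of 5608 kept lung cells, 40.7% (exact binomial interval 39.4 to 42.0%), out of 5981 lung barcodes and of 9759 kept cells in lung and brain together. The sort kept only strongly GFP+ cells, which can set this share.

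The study collected Nestin-GFP+ cells from adult mice at about 6 weeks, 1 library from lung and 1 from brain, by trypsin dissociation, flow sorting and droplet capture of single cells. GFP was driven by Nestin regulatory elements in both tissues, and no library of unsorted or GFP- cells was used here. The labels give the strain as C57BL/6, whereas the study's methods describe transgenic mice bred with CD1 or CD1 × C3H animals. The study counts each tissue as 1 biological replicate, so no difference below carries a test and every interval covers counting error only.

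Pericytes are mural cells embedded in the basement membrane of capillaries, in direct contact with endothelial cells. They depend on endothelial PDGF-B acting through their receptor PDGFRβ, take part in capillary stability and tone, and in the lung line one of the densest capillary beds of the body. They are related to vascular smooth muscle but usually hold little of its contractile protein.

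The 2280 lung pericytes held 11692090 UMIs, with a median of 5245 per cell and 2381.5 genes, against 6059 UMIs and 2547.5 genes in the other 3328 kept lung cells. Values below are CPM, the UMIs of a gene per 1000000 UMIs summed over a group, so 1 UMI in the pericytes is 0.0855 CPM. Similar rules, with an own sum of at least 5, gave 1284 myofibroblasts, 90 matrix fibroblasts, 140 smooth muscle cells and 556 endothelial cells for comparison. The pericyte rule applied to the brain library took 162 cells with a median of 2687 UMIs. The lung and brain tables shared 15 barcodes, of which 1 was a pericyte. Scrublet, which scores each cell against simulated pairs of cells, called 41 of the 2280 pericytes (1.80%) as doublets and 76 of all 5608 kept lung cells.

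The values of the 4 chosen genes are given as a description, because they made the group. Median P was 41 with a range of 5 to 145, against a median of 1 in the other lung cells, and 1718 pericytes held UMIs of all 4 genes. Cox4i2, a respiratory chain subunit isoform, was at 2711 CPM, Higd1b at 2728 CPM, Pdgfrb at 1938 CPM and Fam162b at 638 CPM. Just inside the threshold, the 51 members with P of 5 had Gucy1a1 at 972 CPM, Pde5a at 1224 CPM and Hsd11b1 at 78.2 CPM. Just outside it, the 56 kept cells with P of 4 had the same genes at 747, 949 and 130 CPM. Both edge sets were shallow, with medians of 1472 and 1345.5 UMIs, so the threshold cut through cells of low depth that held pericyte genes on both sides. A further 184 cells passed every sum but held over 1 UMI of Mki67 and Top2a, and they stand among the other lung cells, as do kept cells with P of 1 to 4. Against only those other lung cells with P of 0 or 1, a comparison chosen after the data were seen, 325 of 402 ratios lay within 1.5 times of those over all other lung cells and 77 moved further, with 35.8 in place of 12.05 for Gucy1a1, 64.3 in place of 17.3 for Hsd11b1 and 123 in place of 16.5 for Cpa1.

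The label was checked against Hsd11b1, a marker the rule did not use. It was at 772 CPM in the pericytes and 44.6 CPM in the other lung cells, a ratio of 17.3 (16.2 to 18.6). Thinned to 1000 UMIs per cell, which left out 17 pericytes, Hsd11b1 was seen in 48.0% of pericytes and in 0.540% of endothelial cells, which had a median of 5455.5 UMIs before thinning. Unthinned the shares were 79.1% and 4.32%. A list of 19 further pericyte markers was chosen with earlier results of these data known, so it describes the label without testing it. Of the 19 markers, 18 reached 10 CPM in 1 of the groups compared. At least 2-fold higher in the pericytes than in the other lung cells were 15 of these, and 1, the peptidase Anpep, was at least 2-fold lower. Rgs5, among the 15, was below 2-fold without subgroups 5, 6 and 9 of the pericytes, which are described further on, and Anpep was then lower still, with a ratio of 0.0203 in place of 0.185. Over all 9563 genes compared in the same way, 7.08% were at least 2-fold higher and 13.9% at least 2-fold lower, and the median log2 ratio was 0.02 against 2.77 for the 18 markers. Of genes of other cells, the summed level of 10 epithelial genes was 15.1 CPM against 933 CPM in the other lung cells, that of 11 endothelial genes 460 against 1927 CPM, and that of 10 immune genes 63.5 against 175 CPM. The immune sum was nevertheless above that of each of the 4 lung groups set beside the pericytes below, which lay from 5.03 CPM in smooth muscle cells to 13.4 CPM in myofibroblasts. Eng, a co-receptor of TGF-β found on several vascular cells, made up 321 of the 460 CPM. The mesothelial genes Msln and Wt1 and the Schwann cell gene Sox10 were at 0 UMIs. Of the 4 other sums in the rule, that of the matrix fibroblast genes was higher in the pericytes, at 537 against 153 CPM. Its ratio was 3.51 (3.36 to 3.66), although the rule kept this sum below P in each pericyte. The endothelial, myofibroblast and smooth muscle sums were lower than in the other lung cells.

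**Figure D1:**
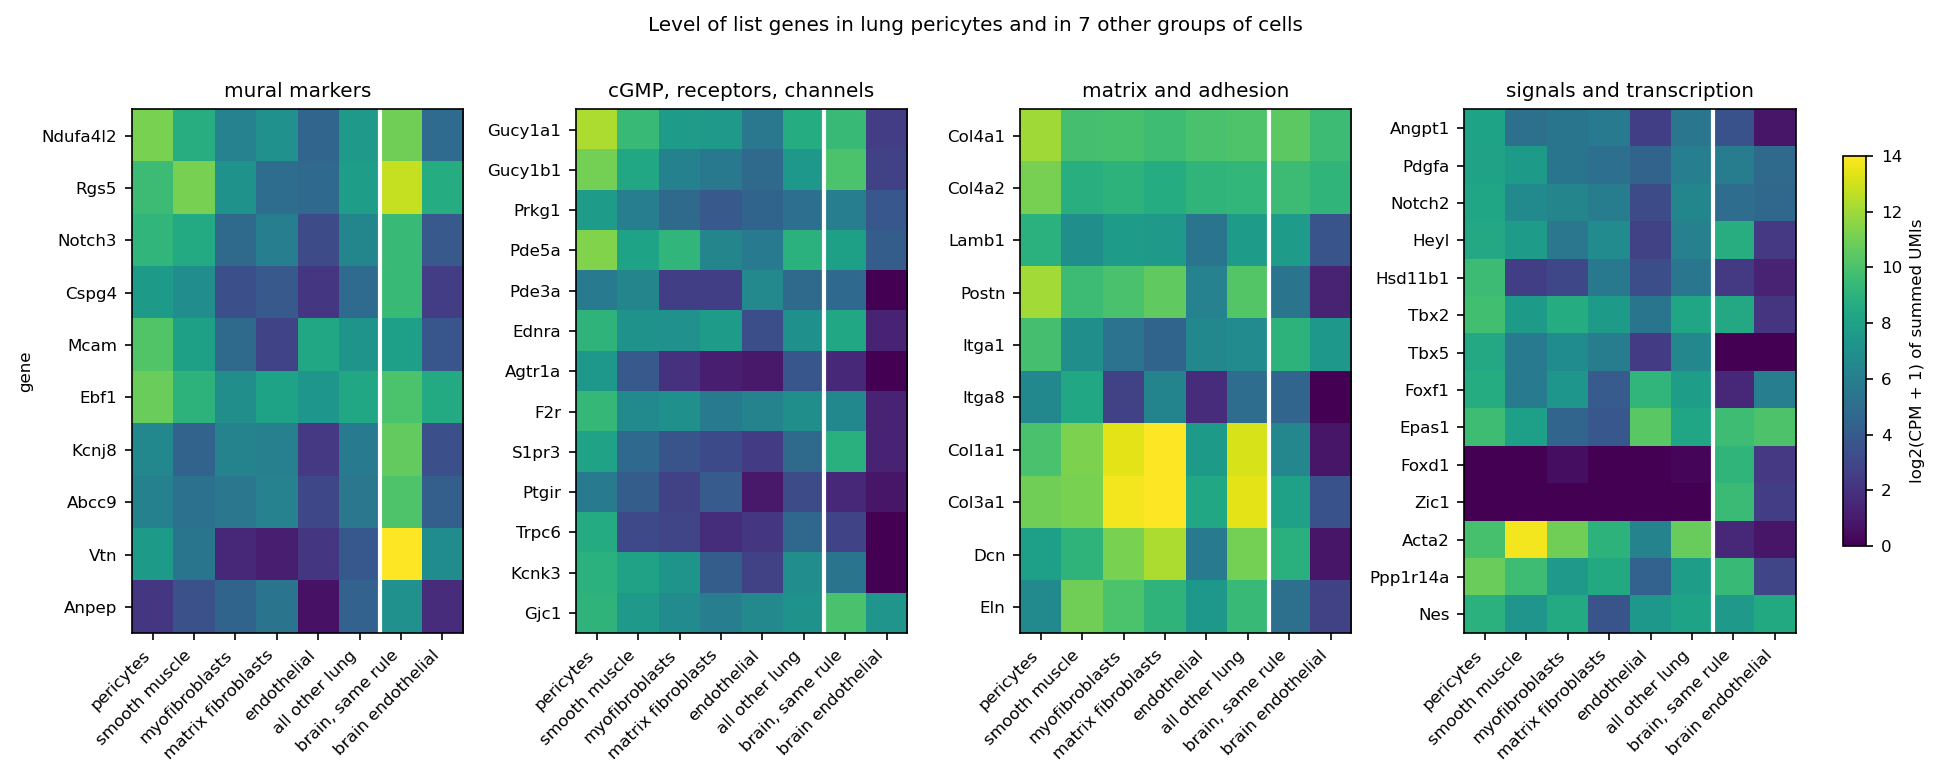
Level of 47 genes, as log2(CPM + 1) on a colour scale, in the lung pericytes (first column of each panel) and 7 other groups, where each column holds the summed UMIs of 1 group of cells from 1 library and a white line divides lung from brain. Gucy1a1, Pde5a, Hsd11b1 and Trpc6 are highest in the pericytes, while Vtn, Kcnj8, Abcc9 and Rgs5 are highest in the brain cells of the same rule.

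Both subunits of the nitric oxide receptor, with Prkg1 and Pde5a that follow it, were higher in the pericytes than in each of the 4 other lung groups. Nitric oxide from endothelium binds soluble guanylate cyclase, a pair of one α and one β subunit that makes cGMP. Gucy1a1, the α1 subunit, was at 4961 CPM in the pericytes, 208 in myofibroblasts, 186 in matrix fibroblasts, 728 in smooth muscle cells and 48.0 in endothelial cells. Gucy1b1, its β1 partner, was at 2194 CPM against 68.9, 50.3, 327 and 27.9 CPM in the same order. Against all other lung cells the ratios were 12.05 (11.8 to 12.3) for Gucy1a1 and 12.5 (12.04 to 12.9) for Gucy1b1. A Gucy1a1 UMI was seen in 95.3% of thinned pericytes and 4.50% of thinned endothelial cells (99.0% and 16.0% unthinned). The alternative α2 subunit Gucy1a2 was far scarcer at 78.9 CPM, so that Gucy1a1 made up 98.4% (98.3 to 98.5%) of the UMIs of the α pair, 58002 against 923. Both subunits lay on chromosome 3, Gucy1a1 at chr3:82092427-82145789 and Gucy1b1 at chr3:82032006-82074689, both on the minus strand (GRCm38.p6).

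Downstream of the cyclase, Prkg1, the cGMP-dependent kinase, was at 205 CPM against 33.3 CPM in the other lung cells, a ratio of 6.17 (5.66 to 6.73). Pde5a, which degrades cGMP and is the target of sildenafil, was at 2650 CPM against 496 CPM, a ratio of 5.34 (5.22 to 5.47). Myofibroblasts, at 592 CPM, held the next level of Pde5a in the lung. Pde3a, a cGMP-inhibited enzyme that degrades cAMP, was at 56.3 CPM against 27.4 CPM, and the natriuretic peptide clearance receptor Npr3 at 86.6 against 37.7 CPM. Pde4d, which degrades cAMP, went the other way at 5.64 against 38.4 CPM. Npr1, a guanylate cyclase that serves as the natriuretic peptide receptor, was at 8.04 CPM against 30.7 CPM. Of 12 genes of the cGMP and cAMP pathway, 7 were thus at least 2-fold higher and 2 at least 2-fold lower.

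Promoters of the cyclase pair, of Pde5a and of Hey2 are shown as examples, and both the letters marked and the 4 windows were chosen after the matches were seen. They came out of a search of 7 motifs on both strands in 30 genes, of which 21 had a window. Each is 300 bases, 250 before and 50 after the start, from RefSeq on GRCm38.p6, with matches to TGGGAA, the core letters bound by the Notch effector RBPJ, or to its complement TTCCCA in capitals. The windows are Gucy1a1 at chr3:82145024-82145323 (minus strand, 4 matches, where a further window of the gene held 0), Gucy1b1 at chr3:82074662-82074961 (minus, 1 match), Pde5a at chr3:122728908-122729207 (plus, 1 match) and Hey2 at chr10:30842734-30843033 (minus, 2 matches).
Gucy1a1: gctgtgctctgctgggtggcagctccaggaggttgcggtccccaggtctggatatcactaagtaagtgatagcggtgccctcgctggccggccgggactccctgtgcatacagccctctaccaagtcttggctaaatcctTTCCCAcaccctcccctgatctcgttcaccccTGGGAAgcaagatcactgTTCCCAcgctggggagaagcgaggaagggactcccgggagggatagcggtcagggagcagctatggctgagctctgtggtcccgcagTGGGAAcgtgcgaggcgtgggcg
Gucy1b1: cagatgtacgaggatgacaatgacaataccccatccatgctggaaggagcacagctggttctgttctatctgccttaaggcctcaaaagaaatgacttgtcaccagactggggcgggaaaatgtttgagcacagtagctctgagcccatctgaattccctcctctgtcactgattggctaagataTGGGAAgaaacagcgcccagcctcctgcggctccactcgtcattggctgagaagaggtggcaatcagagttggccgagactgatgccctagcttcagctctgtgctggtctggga
Pde5a: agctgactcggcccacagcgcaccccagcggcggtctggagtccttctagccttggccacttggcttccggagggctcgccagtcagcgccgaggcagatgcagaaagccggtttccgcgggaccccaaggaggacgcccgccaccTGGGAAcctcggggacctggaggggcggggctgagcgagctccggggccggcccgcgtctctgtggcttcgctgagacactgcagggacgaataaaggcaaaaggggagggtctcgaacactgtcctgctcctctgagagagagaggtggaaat
Hey2: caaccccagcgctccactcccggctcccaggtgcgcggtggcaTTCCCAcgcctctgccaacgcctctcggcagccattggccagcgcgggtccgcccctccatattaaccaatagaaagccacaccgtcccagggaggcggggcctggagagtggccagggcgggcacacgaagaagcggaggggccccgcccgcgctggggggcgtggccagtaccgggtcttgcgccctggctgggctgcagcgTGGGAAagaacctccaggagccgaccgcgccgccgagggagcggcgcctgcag
Either orientation of the letters was present in 8397 of all 32851 promoter windows, 25.6%. By gene symbol the share was 28.3% of 27025 symbols, and 29.3% of the 488 symbols with a window among the 677 genes at least 2-fold higher in the pericytes. The share among the higher genes thus lay close to that of all symbols, and a match is a run of letters rather than a measured site. Of the 21 searched genes with a window 9 held these letters, namely the 4 shown with Cpa1, Ebf1, Fam162b, Kcnj8 and Vtn, and Notch3, Hsd11b1 and Trpc6 were among those that did not. The other 6 motifs were ACGTG in 6 of the 21 genes (19.6% of all windows), CACGTG, which contains it, in 1 (7.15%), TGTTTAC in 1 (3.65%), GGTGTGA in 1 (3.98%), and 1 form each of the CArG box and the MEF2 site, of 10 letters, in 0 (0.0639% and 0.164%). Because the 4 windows were picked for their matches, nothing about Notch or RBPJ is drawn from them.

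Notch genes were split between higher and lower. Notch3, the receptor through which endothelial ligands act on mural cells, was at 598 CPM against 85.2 CPM in the other lung cells, a ratio of 7.02 (6.66 to 7.41). Notch2 was at 313 against 84.0 CPM and Heyl, a target of Notch3, at 349 against 67.6 CPM. Hey2, another target, was at 20.9 against 9.50 CPM, and without subgroups 5, 6 and 9 at 17.5 CPM, a ratio of 1.84. Lower in the pericytes were Hey1 at 4.28 against 79.6 CPM, the ligand Dll4 at 3.42 against 64.6 CPM and the ligand Jag1 at 58.8 against 146 CPM. Without the same subgroups their ratios were 0.0278, 0.0343 and 0.249. Of 12 Notch genes compared, 4 were at least 2-fold higher and 4 at least 2-fold lower.

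Receptors for constrictor and lipid signals were split between higher and lower. Agtr1a, the type 1 receptor of angiotensin II, was at 176 CPM in the pericytes and at no more than 13.8 CPM in any of the other 4 lung groups, with a ratio over other lung cells of 13.99 (12.3 to 16.0). S1pr3, a receptor of sphingosine 1-phosphate, was at 266 against 28.0 CPM, and the prostacyclin receptor Ptgir at 55.3 against 8.65 CPM. F2r, the thrombin receptor, stood at 649 against 125 CPM, and Ednra, the endothelin receptor of mural cells, at 557 against 132 CPM. Receptors known from endothelial cells or fibroblasts were low, with S1pr1 at 4.79 against 103 CPM, Ednrb at 14.03 against 103 CPM and the lysophosphatidic acid receptor Lpar1 at 7.53 against 198 CPM, which became ratios of 0.0233, 0.0107 and 0.0112 without subgroups 5, 6 and 9. Of 15 vasoactive receptors, 6 were at least 2-fold higher and 7 at least 2-fold lower. One of the 6, the α2A adrenergic receptor Adra2a at 14.8 against 5.62 CPM, was lower without those subgroups, at 0.402 CPM and a ratio of 0.0716.

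Among channels, 6 of 13 were at least 2-fold higher and 2 at least 2-fold lower. Trpc6, a cation channel gated by diacylglycerol, was at 391 CPM in the pericytes and at 6.73, 2.58, 7.54 and 3.72 CPM in myofibroblasts, matrix fibroblasts, smooth muscle cells and endothelial cells. Its ratio over all other lung cells was 16.0 (14.5 to 17.5), and it was seen in 32.7% of thinned pericytes and 0.180% of thinned endothelial cells (75.1% and 1.80% unthinned). Kcnk3, the acid-sensitive potassium leak channel in which inherited changes cause pulmonary hypertension, was at 490 against 117 CPM. Gjc1, the gap junction protein connexin 45, was at 546 against 139 CPM. Gja1, or connexin 43, was at 1.80 against 58.1 CPM, and without subgroups 5, 6 and 9 at 0.402 CPM, 145-fold lower.

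Among the respiratory chain isoforms, the pericytes held one form of a pair almost alone. Ndufa4l2, a paralogue of the complex IV subunit Ndufa4, was at 2354 CPM against 185 CPM in the other lung cells, a ratio of 12.7 (12.3 to 13.2). Ndufa4 itself was at 33.8 against 562 CPM. Ndufa4l2 therefore made up 98.6% (98.4 to 98.7%) of the pair's UMIs in the pericytes, 27521 against 395. In smooth muscle cells it made up 40.1%, in matrix fibroblasts 19.96%, in myofibroblasts 10.9% and in endothelial cells 3.14%. Without subgroups 5, 6 and 9 Ndufa4 was at 7.54 CPM, 74.5-fold below the other lung cells, with a UMI in 3.28% of cells. In the brain cells of the same rule Ndufa4l2 held 95.1% (93.6 to 96.4%) of the pair and in brain endothelial cells 4.65%. Ndufa4l2 is at chr10:127514967-127517154 (plus strand) and Ndufa4 at chr6:11900292-11907497 (minus strand).

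Rule genes and their partners gave similar pairs, shown without weight since 4 of the 5 pairs hold a gene that chose the cells. Cox4i2 made up 68.1% of its pair with Cox4i1, the common isoform, which stayed at 1269 CPM against 1003 CPM in the other lung cells. Higd1b made up 96.1% of its pair with Higd1a, Pdgfrb 99.3% of its pair with Pdgfra, and Fam162b 59.3% of its pair with Fam162a. Fam162a, outside the rule, was itself at 437 against 132 CPM. Epas1, the hypoxia-inducible factor 2α, was at 818 against 294 CPM, and Hif1a, the 1α form, at 78.2 against 84.4 CPM. Of 9 respiration genes compared, 2 were at least 2-fold higher and 1 at least 2-fold lower. None of the 15 glycolysis genes compared was at least 2-fold higher, and 3 were at least 2-fold lower.

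**Figure D2:**
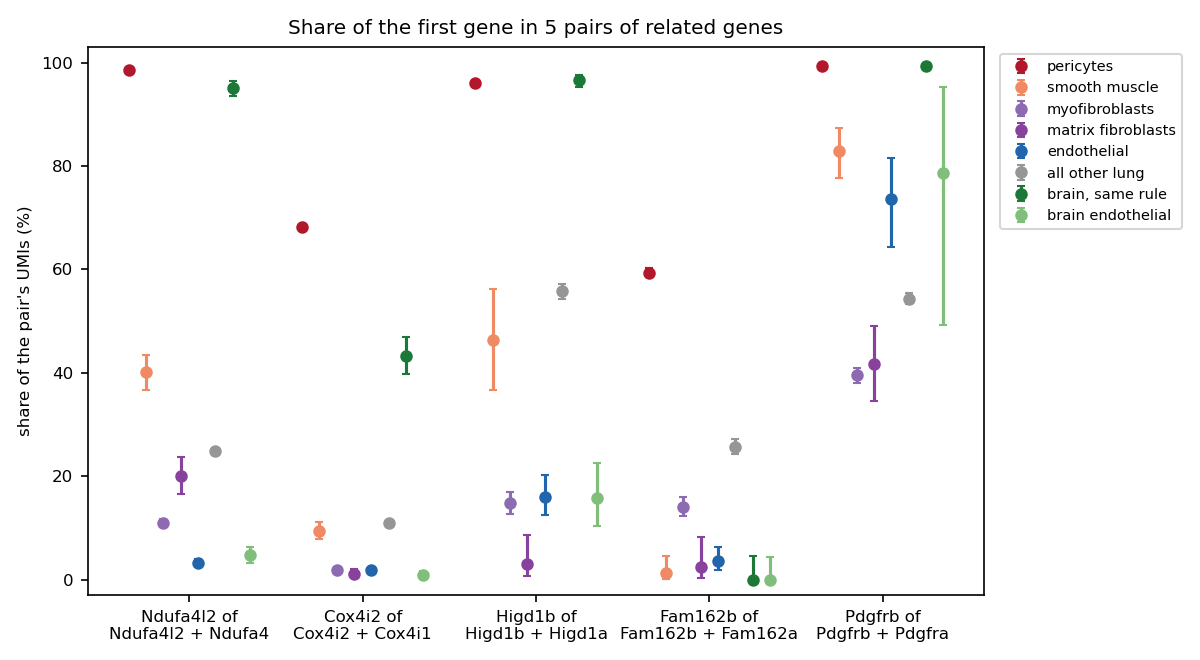
Share of a pair's UMIs held by the first gene, in percent with exact binomial 95% intervals as error bars, for 5 pairs of related genes in the lung pericytes and 7 other groups. Ndufa4l2 holds 98.6% of its pair in the pericytes and 3.14% in lung endothelial cells, and Fam162b holds 59.3% in the lung pericytes but 0 of 79 UMIs in the brain cells of the same rule.

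A pair of endoplasmic reticulum enzymes of glucocorticoid activation was higher in the pericytes. Hsd11b1, which regenerates active glucocorticoid from its inert form, was 17.3-fold higher than in the other lung cells, as given above. H6pd, which supplies it with NADPH, was at 45.1 against 18.2 CPM, a ratio of 2.48 (2.16 to 2.84). Genes induced by glucocorticoids did not share one direction. The metallothioneins Mt1 and Mt2 were at 189 against 86.3 CPM and 23.8 against 6.47 CPM, while Sgk1 was at 15.7 against 116 CPM and Fkbp5 at 4.36 against 12.5 CPM, its ratio being 0.121 without subgroups 5, 6 and 9. Of 15 genes compared, 4 were at least 2-fold higher and 4 at least 2-fold lower.

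Type IV collagen of the basement membrane was high in its common chains, and interstitial collagen was low. Col4a1 and Col4a2, the chains of the common type IV collagen, were at 4183 against 1123 CPM and 2260 against 610 CPM, with ratios of 3.73 (3.67 to 3.79) and 3.70 (3.62 to 3.78). The laminin chain Lamb1 was at 496 against 213 CPM and nidogen, Nid1, at 817 against 291 CPM. Itga1, the α subunit of a receptor of type IV collagen, was at 940 against 108 CPM, a ratio of 8.74 (8.35 to 9.16), and Itga4 at 286 against 35.5 CPM. Their shared partner Itgb1 was at 1386 against 703 CPM. Other basement membrane genes were lower, with the type IV chain Col4a5 at 3.85 against 33.1 CPM, the laminin chain Lama5 at 3.93 against 38.9 CPM, Col18a1 at 14.7 against 47.2 CPM and Col15a1 at 41.8 against 170.2 CPM. Without subgroups 5, 6 and 9 these 4 were at ratios of 0.0243, 0.0491, 0.117 and 0.0130. In counts, 5 of 15 basement membrane genes and 5 of 11 integrins were at least 2-fold higher, with 4 and 2 at least 2-fold lower.

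Of 24 interstitial matrix genes, 19 were at least 2-fold lower in the pericytes and 1 was at least 2-fold higher. The exception was Postn, which encodes the matricellular protein periostin, at 4264 against 1209 CPM and a ratio of 3.53 (3.47 to 3.58). Postn was above each of the 4 lung groups, the next being matrix fibroblasts at 1537 CPM. Col1a1, of type I collagen, was at 1009 against 9055 CPM, and without subgroups 5, 6 and 9 at 338 CPM. Elastin, Eln, was at 104 against 725 CPM and without those subgroups at 12.97 CPM. Decorin, Dcn, was at 240 against 2168 CPM and without them at 14.9 CPM.

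Contractile genes did not form one block. Ppp1r14a, an inhibitor of myosin phosphatase, was at 1803 against 227 CPM, a ratio of 7.93 (7.68 to 8.19), and exceeded the 805 CPM of smooth muscle cells. Myl9, the regulatory light chain, was at 1043 against 467 CPM, and the muscle intermediate filament Des at 718 against 309 CPM. Acta2, smooth muscle actin, was at 958 against 1736 CPM, and at 13865 CPM in the smooth muscle cells. Of 14 contractile genes, 4 were at least 2-fold higher and 1 at least 2-fold lower, or 3 lower without subgroups 5, 6 and 9. The smooth muscle genes Myh11 and Cnn1, which the rule used, were at 181 and 1.28 CPM.

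Signals to neighbours and transcription factors showed named exceptions. Angpt1, the agonist of the endothelial receptor Tie2, was at 274 against 44.6 CPM and Pdgfa at 266 against 62.7 CPM, whereas the chemokine Cxcl12 was at 49.3 against 971 CPM, a ratio of 0.0507, or 0.0087 without subgroups 5, 6 and 9. Pdgfb, the ligand of the receptor that chose these cells, was at 3.68 CPM in the pericytes and 153 CPM in endothelial cells. Only Angpt1 of 20 angiogenic genes was at least 2-fold higher, and 11 were at least 2-fold lower. In the Wnt list Ccn4, a target of β-catenin, was at 631 against 119 CPM, Lef1 at 95.5 against 35.9 CPM and the ligand Wnt4 at 60.1 against 22.7 CPM, with 5 of 15 genes at least 2-fold higher and 6 at least 2-fold lower. Ebf1 was at 1810 against 322 CPM, a ratio of 5.62 (5.46 to 5.78). The lung mesenchyme factors Tbx5 and Tbx2 were at 353 against 88.5 CPM and 881 against 309 CPM. Foxf1 and Tbx4, in the same tissue, were at 409 against 221 CPM and 245 against 135 CPM. Of 31 transcription factors, 9 were at least 2-fold higher and 6 at least 2-fold lower. Without subgroups 5, 6 and 9 these counts were 11 and 8, with Foxf1 and Tbx4 joining the higher and Ebf2 and Prrx1 the lower.

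Immediate early genes were mostly lower, 12 of 19, with 1, the heat shock gene Hspa1a, at least 2-fold higher. Fos was at 618 against 1435 CPM and Egr1 at 417 against 1079 CPM. Lists of lipid genes (8 of 11), insulin-like growth factor genes (7 of 10) and guidance and synaptic genes (13 of 17) also held mostly genes at least 2-fold lower and none at least 2-fold higher. In the TGF-β and BMP list 14 of 29 were at least 2-fold lower, and 1, the ligand Bmp2, was higher at 72.7 against 35.4 CPM. The hedgehog list had 5 of 7 lower and none higher. Of 10 chemokine and MHC genes, 2 were higher, the chemokines Ccl2 at 20.5 against 4.53 CPM and Cxcl14 at 45.8 against 2.93 CPM, and 5 were lower. Nes, whose regulatory elements drove the sort, was at 497 CPM in the pericytes and 277 CPM in the other lung cells. Its ratio was 1.80 (1.73 to 1.86), and a Nes UMI was seen in 36.5% of thinned pericytes, 30.2% of thinned myofibroblasts and 15.3% of thinned endothelial cells (82.6%, 70.3% and 51.6% unthinned). Of the 7 intermediate filament genes compared, 1 (Des) was at least 2-fold higher and 5 at least 2-fold lower, among them Vim at 1482 against 3364 CPM.

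**Figure D3:**
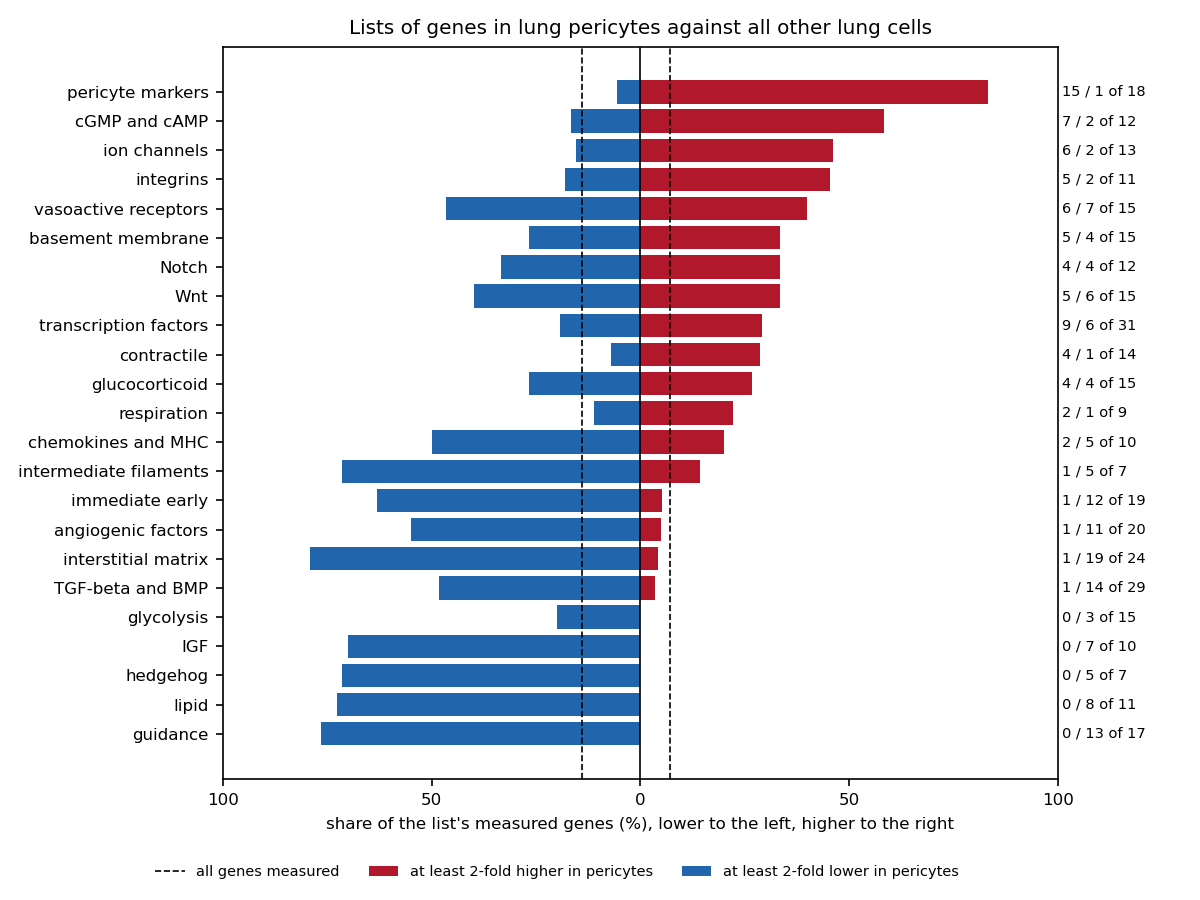
Share of the measured genes of 23 lists, in percent, that were at least 2-fold higher (bars to the right) or at least 2-fold lower (bars to the left) in the lung pericytes than in all other kept lung cells, with the counts printed at the right and dashed lines at the shares over all genes, 7.08% and 13.9%. Pericyte markers (15 of 18) and cGMP and cAMP genes (7 of 12) lie mostly to the right, and interstitial matrix genes (19 of 24) mostly to the left.

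Outside the lists, the genes with the highest ratio over the other lung cells, among those at 50 CPM or more in at least 20% of pericytes, were of varied kinds. Clstn2, a synaptic calsyntenin, was at 318 against 19.1 CPM. Cpa1, carboxypeptidase A1 of the pancreas, was at 228 against 13.9 CPM and seen in 44.2% of pericytes. The somatostatin receptor Sstr2 was at 132 against 8.56 CPM, the adenylyl cyclase Adcy8 at 207 against 13.98 CPM, the potassium channel Kcnq5 at 121 against 6.91 CPM and the leukotriene receptor Cysltr1 at 60.9 against 4.43 CPM. The highest ratio of all was that of Tlr12, a toll-like receptor, with 62.4 against 3.33 CPM, a ratio of 18.7 (14.6 to 24.4). Fam101a, Zfp663, Gm11206, Emid1, Cdk18, Plxdc1, Gm26580, Adap2 and Rasgrp2 complete the 20 with Hsd11b1, Trpc6, Vtn and Agtr1a, all at ratios from 13.7 to 18.4 save Tlr12.

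Of 8419 genes at 10 CPM or more in the pericytes, 406 (4.82%) were at least 2-fold higher there than in the highest of the 4 other lung groups. Clstn2 had a ratio of 63.2 (24.7 to 232), which rests on 4 UMIs in smooth muscle cells, and Cpa1, with 0 UMIs there, was at least 60.5-fold higher. Sstr2 at 52.5 (14.5 to 434), Trpc6 at 51.9 (23.8 to 141) and Adcy8 at 41.1 (16.0 to 151) were also among the highest and rest on 2, 6 and 4 smooth muscle UMIs. Mapt, which encodes tau, was at 367 CPM with a ratio of 20.3. Kcnq5, Cdk18, Tnfrsf21, Gm26580, Emid1, Fam134b, the lipase Lipg and Plxdc1 had ratios from 17.0 to 36.9, of which those of Kcnq5, Cdk18 and Plxdc1 rest on 2 or 3 smooth muscle UMIs.

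The genes with the lowest ratio over the other lung cells were taken among those at 50 CPM or more in at least 20% of the other lung cells. Palmd was at 0.855 against 62.9 CPM and 73.5-fold lower, and Trim67 at 2.65 against 90.2 CPM. Angiotensin converting enzyme, Ace, was at 4.88 against 145 CPM, and angiotensinogen, Agt, at 12.4 against 380 CPM. Fmo2, an oxygenase abundant in lung, was at 14.8 against 399 CPM and Igf1 at 11.97 against 280 CPM. Agt, Fmo2 and Igf1 were at 4.73, 3.22 and 2.51 CPM without subgroups 5, 6 and 9. Cd93, Prss35, Entpd1, P4ha3, Jam2, Pamr1, S1pr1, Lpar1 and Net1 were 20.8-fold to 32.9-fold lower. Without those subgroups the 15 genes had lower ratios still, from 0.0064 for Palmd to 0.025 for P4ha3.

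Brain cells chosen by the same rule differed from the lung pericytes in many genes, among them the rule gene Fam162b with 0 UMIs there, and tissue and library cannot be told apart here. Over 9946 genes, 12.6% were at least 2-fold higher in the lung pericytes and 20.1% at least 2-fold lower, with a median log2 ratio of -0.13. The brain set also held 80.6 CPM of the myelin gene Mobp, 370 CPM of the glial transporter gene Slc1a2 and 130 CPM of the neuronal gene Tubb3, each with 1 UMI in the lung pericytes, and 8 of its 162 cells were called as doublets. The part of such cells in the ratios was not tested.

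Markers of brain pericytes were lower in the lung pericytes than in the brain cells, or missing there. Vtn, vitronectin, was at 200 CPM in the lung pericytes and 20876 CPM in the brain cells, 105-fold lower in lung, and yet 14.7-fold (13.003 to 16.8) higher than in the other lung cells. Kcnj8 and Abcc9, the pore and regulatory subunits of a potassium channel closed by ATP, were at 92.1 and 70.3 CPM against 1611 and 1126 CPM, and Rgs5, a regulator of G protein signalling, at 769 against 7004 CPM. Thinned to 1000 UMIs, Kcnj8 was seen in 6.23% of the lung pericytes and 66.7% of the brain cells (19.5% and 91.4% unthinned), with 0.360% in lung endothelial cells and 7.40% in lung myofibroblasts (1.62% and 34.6% unthinned). The lung pericyte share was thus no higher than that of the myofibroblasts. Without subgroups 5, 6 and 9 the lung level of Rgs5 was 271 CPM, of Kcnj8 38.8 CPM and of Abcc9 32.6 CPM. The transporters Atp13a5 and Slc6a20a, the peptidase Ggt1 and the transcription factors Zic1 and Foxd1 had 0 UMIs in the lung pericytes and stood at 2396, 1021, 310, 735 and 578 CPM in the brain cells. Against the floor of 3 UMIs Atp13a5 was at least 9340-fold lower. All 10 genes of the list were at least 2-fold lower in lung, and 9 of 13 channel genes and 6 of 12 Notch genes were too, while 3 channel genes and 1 Notch gene were at least 2-fold higher. Of 5 genes of the brain pericyte list compared with the other lung cells, 3 (Vtn, Slc19a1 and Art3) were at least 2-fold higher and 0 at least 2-fold lower. Among all genes, Car4, Perp, Ptgds and Gm17200 had at most 4 UMIs in the lung pericytes and 211 to 996 CPM in the brain cells.

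Of 33 transcription factors, 14 were at least 2-fold higher in the lung pericytes than in the brain cells and 9 at least 2-fold lower. Tbx3, Tbx18 and Foxc1 were among the lower, and the lung mesenchyme factors Tbx5, Tbx4 and Foxf1 among the higher. Tbx5 and Tbx4 had 0 UMIs in the brain cells and were at least 57.0-fold and 39.5-fold higher in lung. Foxf1 had 1 UMI in the brain cells, a ratio of 198 (35.5 to 7814), and Hsd11b1 had 2, a ratio of 187 (51.7 to 1544). Postn was at 41.3 CPM in the brain cells, a ratio of 103 (66.8 to 169). Acta2 was at 2.07 CPM there, from 1 UMI, a ratio of 464 (83.2 to 18322), and it was seen in 34.1% of thinned lung pericytes, 3.96% of thinned lung endothelial cells and none of the 162 thinned brain cells (59.3%, 14.9% and 0.617% unthinned). Interstitial matrix genes, low for the lung, were at least 2-fold higher than in the brain cells in 15 of 24 cases and lower in 2. Without subgroups 5, 6 and 9 these were 11 and 7 of 22, and Eln and Loxl1 passed from the higher to the lower genes. Ltbp2, Gpr126, Clstn2, Lipg, Col5a1, Lmcd1, Fzd1 and Lepr complete the 12 highest ratios, from 109 to 388. These rest on few brain UMIs and moved with the rule: with P of at least 3 the ratio of Hsd11b1 was 17.1, with P above 2 times each other sum that of Foxf1 was 64.5, and with P of at least 10 that of Acta2 was 125 and that of Postn 281.

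Cyclic GMP genes differed in balance between the tissues. Gucy1a1 was at 709 CPM in the brain cells, a ratio of 7.001 (6.30 to 7.81), Gucy1b1 at 1050 CPM, a ratio of 2.09 (1.91 to 2.29), and Pde5a at 244 CPM, a ratio of 10.9 (9.07 to 13.1). The α1 subunit was thus above β1 in the lung pericytes and below it in the brain cells. Pde4d was at 411 CPM in the brain cells, 72.8-fold above lung. Among receptors and channels, Agtr1a and Trpc6 had 1 and 3 UMIs in the brain cells, while the thromboxane receptor Tbxa2r was at 448 CPM there against 43.3 CPM in lung. Ndufa4l2, Notch3, Heyl and Epas1 lay at 1975, 698, 417 and 810 CPM in the brain cells, with ratios from 0.836 to 1.19. Of 19 immediate early genes 13 were at least 2-fold higher in lung, Fos being at 24.8 CPM in the brain cells, and of 16 glycolysis genes 12 were at least 2-fold lower.

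**Figure D4:**
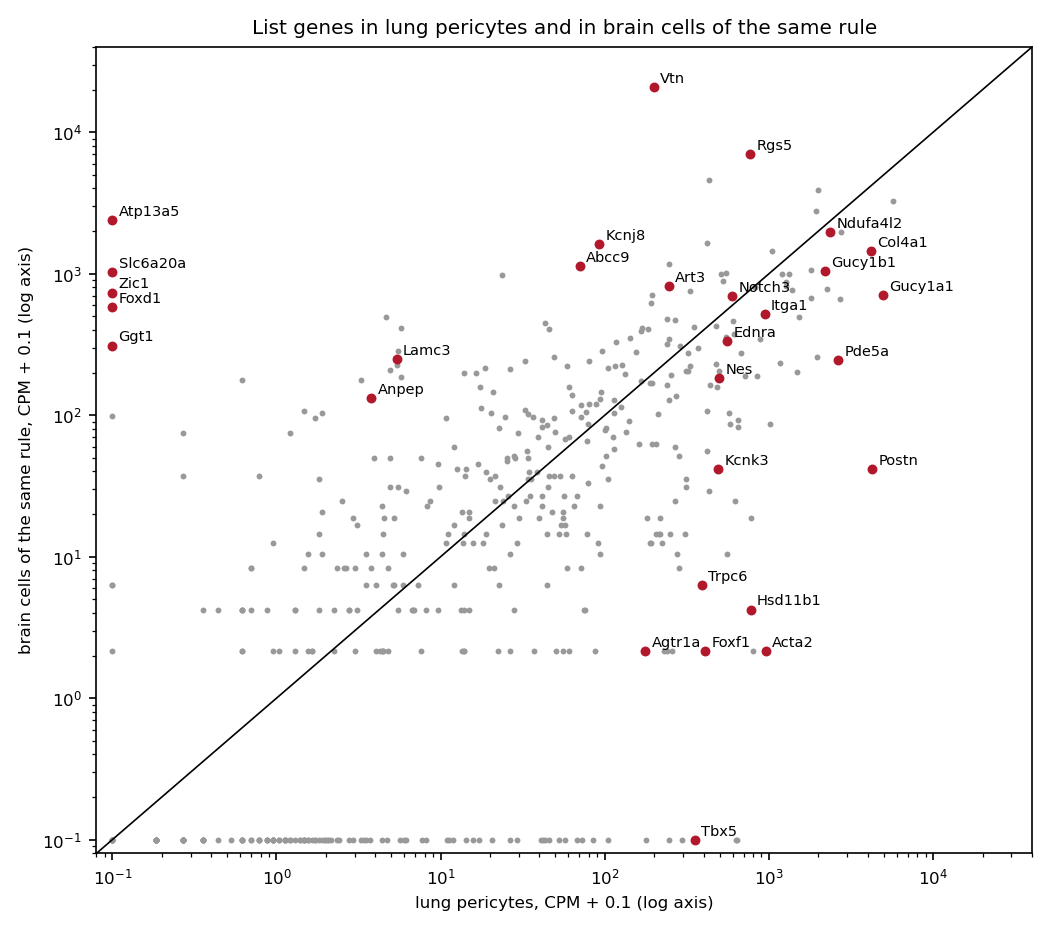
CPM of the 488 list genes in the lung pericytes (horizontal axis) against the brain cells of the same rule (vertical axis), both with 0.1 CPM added on log axes, 1 point per gene, with a diagonal of equal levels and some genes named in red. Postn, Acta2, Hsd11b1 and Tbx5 lie below the diagonal, towards lung, and Vtn, Kcnj8, Abcc9 and Atp13a5 above it, towards brain.

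Variation among the pericytes was taken as variance over mean, which lies near 1 from counting noise alone at low counts. After thinning to 2000 UMIs, which 2091 pericytes allowed, 67 of 3570 genes had a variance of at least 2 times their mean, and the median over genes was 1.03. The most uneven were the haemoglobin genes Hbb-bs and Hba-a1, whose near-identical copies can exchange reads. Of 10949 haemoglobin UMIs in the pericytes, 95.8% lay in 5 cells, and a haemoglobin UMI was found in 17.1% of pericytes and 17.4% of the other lung cells. Next came Col1a1 with a variance over mean of 29.0, Mgp with 28.7, Malat1 with 22.8, Rgs5 with 20.7 and Apoe with 15.9. Gm26924, the mitochondrial ribosomal RNA mt-Rnr2, the matrix genes Col3a1, Dcn and Col1a2, and Acta2, Igfbp7 and Ptn made up the rest of the 15, from 15.1 down to 6.27.

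Clustering on 2000 variable genes, without the rule genes, split the pericytes into 9 subgroups of 678, 553, 450, 199, 144, 112, 83, 48 and 13 cells. They are numbered by size, and their leading genes describe them without a test. Subgroup 1 led with Cxcl14, St8sia4, Bdnf, Epor and Adcy8, at ratios over the other pericytes of 2.16 or less. Subgroup 2 led with Dusp5, Ppp1r15a, Rgs17, Socs3 and Klf2. Its immediate early genes summed to 5478 CPM, below the 11225, 9719 and 6056 CPM of subgroups 5, 6 and 9 and above the 1795 to 4165 CPM of the rest. Subgroup 3 led with Rps15a-ps8, Rps3a3, Rpl26, Acta2 and Gfra2, and its Acta2 level was 1548 CPM against 804 CPM in the other pericytes. Subgroups 4 and 8 were shallow. Subgroup 4 had a median of 1652 UMIs and a median of 18.5% of UMIs in mitochondrial genes, and led with mt-Rnr1, Xist, Fendrr, mt-Tq and mt-Rnr2. Subgroup 8 had a median of 1965 UMIs and led with Nop9, Gm10288, Ppp1r7, Mrpl22 and Ap4s1. Subgroup 7 led with the DNA replication and mitosis genes Rrm2, Ckap2, Chaf1b and Clspn and with D17H6S56E-5. In subgroup 9 the leading genes were Ceacam1, Eltd1, Myct1, Bmx and 8430408G22Rik, the endothelial rule genes summed to 2247 CPM, and 12 of 13 cells were called as doublets.

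Subgroup 5, with 144 cells, held fibroblast and smooth muscle genes beside pericyte genes. Its leaders were Ccn5, Eln, Mfap4, Mfap5 and Slit3, of elastic fibres and matrix, and Eln was at 1057 CPM against 14.1 CPM in the other pericytes. It held 63.5% of all Col1a1 UMIs of the pericytes in 6.32% of the cells. Acta2 was at 3598 against 709 CPM, Hsd11b1 at 87.3 against 837 CPM and Gucy1a1 at 2073 against 5233 CPM, while Notch3 was at 599 against 598 CPM. Median P was 20, the adventitial fibroblast list summed to 3121 CPM, and 24 of the 144 cells (16.7%) were called as doublets. The 4 smooth muscle genes of the rule summed to 797 CPM, against 60.5 to 249 CPM in the other subgroups, and Tagln, a smooth muscle actin-binding protein, was at 2749 CPM. The part of doublets and of fibroblast or smooth muscle RNA in these levels was not tested.

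Subgroup 6, with 112 cells or 4.91% of the pericytes, carried a set of levels unlike the rest, with 1 of its cells called as a doublet. Rgs5, Kcnj8 and Abcc9 were concentrated there. Rgs5 was at 8495 CPM against 323 CPM in the other pericytes, a ratio of 26.3 (25.2 to 27.5), Kcnj8 at 999 against 39.7 CPM and Abcc9 at 700 against 33.9 CPM. These 112 cells held 60.3%, 59.2% and 54.4% of the pericytes' UMIs of the 3 genes. Of 18 pericyte markers outside the rule, 5 were at least 2-fold higher in subgroup 6 than in the other pericytes, these 3 with Vtn at 510 against 182 CPM and Anpep at 47.0 against 1.18 CPM, and 6 were at least 2-fold lower. Those lower were Gucy1a1, Gucy1b1, Postn, Trpc6, Itga1 and the adhesion molecule Mcam, the last at 249 against 1214 CPM. Pdgfrb, a rule gene, was lower by less than 2-fold, at 1061 against 1989 CPM. So were the proteoglycan Cspg4 at 127 against 199 CPM and Acta2 at 604 against 979 CPM. Without subgroups 5, 6 and 9, Rgs5 was at 271 CPM with a ratio over the other lung cells of 1.21 in place of 3.43, and Kcnj8 and Abcc9 were at 38.8 and 32.6 CPM with ratios of 0.69 and 0.72 in place of 1.63 and 1.55.

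The lung mesenchyme factors Foxf1, Tbx4, Tbx5 and Tcf21 were lower in subgroup 6. They are examples, and no count over the list of factors is given for this subgroup. Foxf1 was at 7.83 CPM there against 432 CPM in the other pericytes, 55.2-fold lower (23.6 to 170.0), and Tbx4 at 3.13 against 259 CPM. Tbx5 was at 15.7 against 373 CPM and Tcf21 at 14.1 against 251 CPM. Npnt, the integrin α8β1 ligand nephronectin, was at 4.70 against 314 CPM. Tcf21 and Npnt were in the rule as matrix fibroblast genes, whose sum had to stay below P. Median P was 12 in subgroup 6, so the rule itself bounded their levels there. The transcription factor Ebf2 went the other way from Foxf1, at 75.1 CPM in subgroup 6 and 10.9 CPM or less in each other subgroup.

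Several genes high in the pericytes as a whole were lower in subgroup 6, with Gucy1a1 at 777 against 5203 CPM, Pde5a at 135 against 2795 CPM, Kcnk3 at 40.7 against 516 CPM, Angpt1 at 20.4 against 289 CPM and Hsd11b1 at 59.5 against 814 CPM. Vasoactive receptors did not share one direction, with F2r at 42.3 against 684 CPM but Ednrb at 183 against 4.25 CPM and the vasopressin receptor Avpr1a at 42.3 against 0.362 CPM. Of the rule genes, Fam162b was at 6.26 CPM, 108-fold lower than in the other pericytes, and Cox4i2 at 524 CPM, so that median P was 12 at a median depth of 5155.5 UMIs. Within 2-fold of the other pericytes were Notch3 at 643 against 596 CPM, Ebf1 at 2034 against 1797 CPM and Ndufa4l2 at 1514 against 2402 CPM. Leading genes of subgroup 6 were Npy1r, a neuropeptide Y receptor, the transcription factors Osr2 and Ebf3, Mmp9 and Steap4. Adra2a, at 254 against 0.995 CPM, had 93.6% of its UMIs there. Ptn was at 1573 against 8.50 CPM, and Col15a1 at 564 against 11.7 CPM. The levels of Rgs5 and Gucy1a1 lay near those of the brain cells, 7004 and 709 CPM, but those of Adra2a at 4.13 CPM, Col15a1 at 0 CPM and Avpr1a at 0 CPM in the brain cells did not, and Zic1 and Foxd1 were at 0 UMIs in every subgroup and Vtn was at 510 CPM against 20876 CPM. Fibroblast genes were also present, with Mgp at 2829 against 282 CPM and Dcn at 1929 against 142 CPM. Dcn was seen in 37.5% of the 112 cells and in 9.82% of all pericytes, unthinned. The immune list summed to 4.70 CPM and the blood list to 48.5 CPM, below those of the pericytes as a whole. Subgroup 6 differed from the other pericytes by at least 2-fold in 12.04% of 9253 genes upward and 10.3% downward, and subgroup 5 in 8.11% and 6.66% of 9012.

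**Figure D5:**
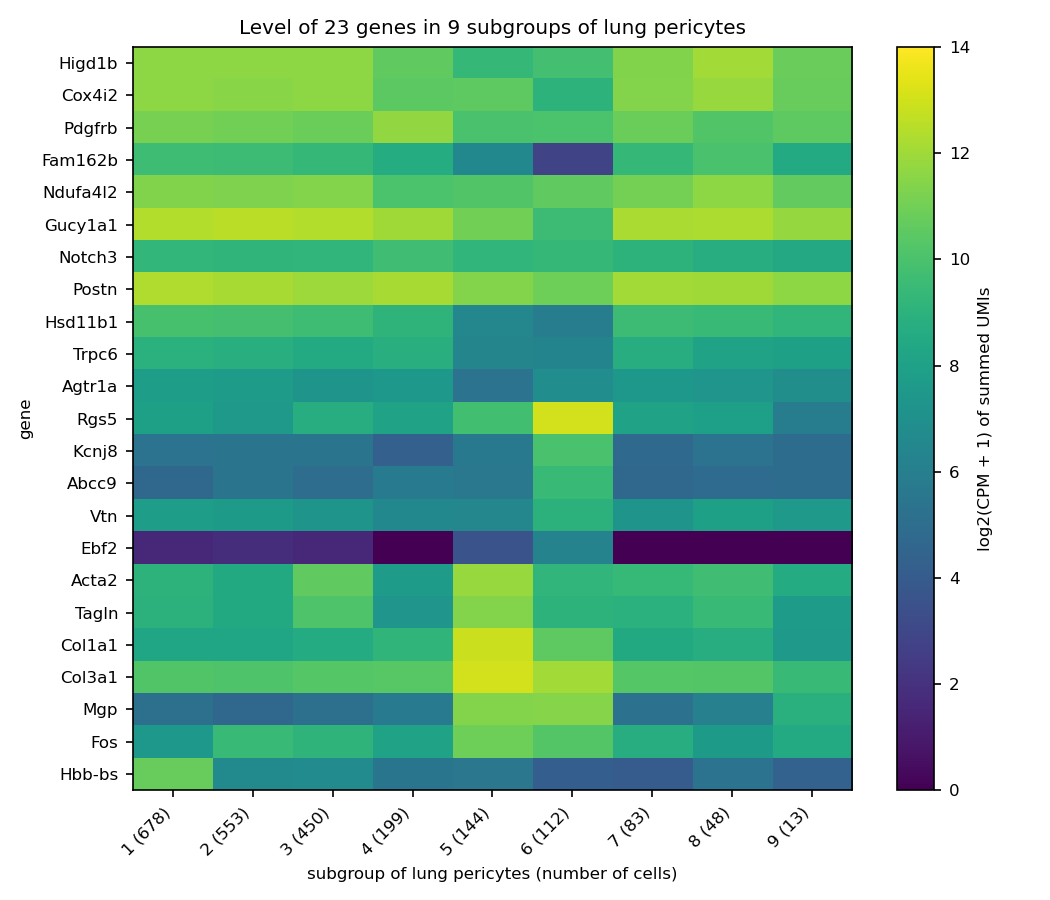
Level of 23 genes, as log2(CPM + 1) on a colour scale, in the 9 subgroups of lung pericytes, numbered by size with the number of cells in brackets. Subgroup 6 is high for Rgs5, Kcnj8 and Abcc9 and low for Fam162b, and subgroup 5 is high for Col1a1, Col3a1 and Acta2.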

How the data were processed

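Nestin-GFP+ cells of 1 lung and 1 brain library were sequenced by 10x Chromium 3′ chemistry. Per the labels, the authors used bcl2fastq 2.19.1.403, UMI-tools 1.0.0, STAR 2.7.1a on mm10 and Subread featureCounts 1.6.4, and deposited whole UMI counts per gene and cell. The annotation and the choice of barcodes are not given in the sources used here. The lung and brain tables held 36816962 and 26221173 UMIs in 5981 and 4640 barcodes.

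The members and gene lists were chosen with earlier results of these data known, and no list or cluster was tested. Counts were summed over each group and expressed as CPM. Ratios carry exact conditional binomial 95% intervals, and shares carry Clopper-Pearson intervals, which cover counting error only. Genes with at least 10 CPM in either group were compared at 2-fold, or with at least 10 CPM in the pericytes where the 4 other lung groups were set beside them. All genes of the rule were left out of these comparisons and of the rankings by ratio. These were the genes of P, those of the 4 other sums, and Mki67 and Top2a. A gene at 0 UMIs was set to a floor of 3 UMIs per group, and no ratio is given where both groups were at or under it. Named genes were those of the 33 lists, the highest and lowest ratios among genes at 50 CPM or more (20 and 15 against other lung cells, where the higher group held the gene in at least 20% of cells; 15 against the highest of 4 lung groups; 12 and 12 against brain), the 15 with the highest variance over mean and 5 for each subgroup. Genes named outside this rule were chosen after their values were seen, and some genes that the rule names are not reported here.

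Cells were thinned without replacement to 1000 UMIs for shares and 2000 for variance. Subgroups came from scanpy 1.11.5 (2000 variable genes, 20 components, 15 neighbours, Leiden resolution 0.5) and doublet calls from Scrublet (6% expected), which removed no cell. Python 3.11.15, numpy 2.4.6, scipy 1.17.1 and pandas 2.3.3 were used, and the ratio, interval and thinning steps were tested on simulated data. Promoters came from RefSeq, with symbols matched exactly. Alternatives covered P minimum, margin, cycling limit, cell filters, doublets, scaling and CPM minimum; leaving out subgroups 5, 6 and 9, other lung cells with P of 0 or 1, and a lower matrix fibroblast minimum were added after the data were seen.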

Additional observations from a re-analysis of the deposited data

Results flagged for a closer look

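The ratio of CPM in pericytes over endothelial cells was taken in each library, with the same rules for both cell types. For 11 list genes at 50 CPM or more it was at least 2-fold in opposite directions in lung and brain. With 1 library per tissue the difference between the ratios was not tested, and tissue and library cannot be told apart. Of these, 5 were higher in pericytes in lung and lower in brain. Angptl4, a secreted inhibitor of lipoprotein lipase, had a ratio of 5.06 in lung and 0.0499 in brain. The brain value rests on 4.13 CPM in the 162 cells of the pericyte rule, where 1 UMI is 2.07 CPM. Hba-a2, a haemoglobin chain, had a ratio of 28.9 in lung and 0.00623 in brain. Lef1, a Wnt pathway factor, had a ratio of 34.2 in lung and 0.103 in brain. Mt1, a metallothionein, had a ratio of 43.6 in lung and 0.340 in brain. Tgfb2, a TGF-β ligand, had a ratio of 2.15 in lung and 0.272 in brain. The other 6 were lower in lung pericytes and higher in the brain cells of the same rule. Fabp5, a fatty acid binding protein, had a ratio of 0.242 in lung and 3.12 in brain. Gja4, connexin 37, had a ratio of 0.144 in lung and 12.4 in brain. Mgp, matrix Gla protein, had a ratio of 0.409 in lung and 8.08 in brain. Without subgroups 5, 6 and 9, left out after the data were seen, the lung ratio of Mgp was 0.0319 and that of Fabp5 0.0473, and those of the other 9 genes lay within 1.5 times of the values given here. Notch1, a Notch receptor, had a ratio of 0.333 in lung and 2.30 in brain. Nrarp, a Notch target, had a ratio of 0.342 in lung and 2.48 in brain. Pde4d, an enzyme that degrades cAMP, had a ratio of 0.0617 in lung and 12.4 in brain. Reads of Hba-a2 can be split with the near-identical Hba-a1, which was lower in lung pericytes than in lung endothelial cells, at 249.6 against 738 CPM. Summed, the pair had a ratio of 0.434 in lung and 0.0071 in brain, so that it was lower in pericytes in both, and 95.8% of the haemoglobin UMIs of the lung pericytes lay in 5 cells.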

How the results depend on the processing

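No paired analysis was possible because each tissue is 1 library. Of 96 counts under alternatives, 86 lay within 1.5 times the value reported. The number of pericytes ranged from 2011 without subgroups 5, 6 and 9 to 2464 with no cycling limit. With a minimum of 1 CPM, 1064 genes were at least 2-fold higher and 3056 lower than in other lung cells, and 5028 lower than in the brain cells. With a minimum of 50 CPM the counts were 415 and 451 against other lung cells, 252 against the 4 lung groups, and 663 and 650 against the brain cells, since fewer genes were compared. Thinned to 1000 UMIs, 25 genes had a variance of at least 2 times the mean, and resolution 1 gave 15 subgroups. Of 4962 values of 456 ratios, 4481 lay within 1.5 times and 6 changed sides. Against brain these were Igf1 (1.08 with P of at least 10, 1.49 with P above 2 times each other sum), Agt and Fmo2. Igf1 had 29 UMIs in the brain cells and was seen in 0.617% of the 162 cells. Agt and Fmo2 were at 0.762 and 0.519 without subgroups 5, 6 and 9. Both had 0 UMIs in the brain cells, so these values are lower bounds set by the floor of 3 UMIs and show no fall below brain. Against other lung cells the ratios that changed sides were those of Hba-a2 (1.13 with no cycling limit) and Adra2a (0.0716 without the subgroups). The causes were not tested. The 162 brain cells, where 1 UMI is 2.07 CPM, limit every lung to brain ratio of a low gene.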
